A study of Rattus norvegicus with 13 samples.

Results

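DNA replication and S-phase genes were followed here in cultured rat chondrocytes, the cells of cartilage, exposed to glucosamine, interleukin-1β (IL-1β) or both. The genes were taken by symbol from a list of 55 members that was drawn up with earlier results of these data known. Counts and medians over the members therefore describe the list and are no independent evidence. A gene counted as measured where the array held a probe set annotated to that gene alone. Of the 55 members, 49 were measured, among 14217 genes with such a probe set. Cdc6, Cdc7, Dbf4, Fanci, Gins2 and Rrm2 were not analysed here for want of a probe set of their own. The 49 measured members were sorted by role into 10 licensing genes, 3 genes of helicase activation, 18 genes of the polymerases, clamp and clamp loader, 4 genes of nucleotide supply, 6 genes of chromatin assembly, 4 genes of repair and checkpoints, and 4 regulators of the passage from G1 to S phase.

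A dividing cell copies its genome in S phase. In G1, the origin recognition complex and Cdt1 load the ring-shaped MCM helicase onto replication origins, a step termed licensing, which geminin (Gmnn) blocks once S phase has begun. Cdc45, the GINS complex and Mcm10 then activate the helicase, primase and the DNA polymerases synthesize the new strands, and the sliding clamp PCNA, placed by replication factor C (RFC), tethers the polymerases to the template. Thymidine kinase, ribonucleotide reductase and their partners supply the deoxynucleotides, and histone chaperones rebuild chromatin behind the fork. Many of these genes are transcribed by E2F factors as cells leave G1. Chondrocytes rarely divide in adult cartilage but proliferate when grown on plastic with serum.

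Chondrocytes were isolated from the cartilage of the femoral heads of male Wistar rats aged 2 months, pooled at the second passage and seeded into flasks in medium with serum. The 20 flasks were divided into 4 groups of 5, which received nothing (untreated), glucosamine at 20 mM for 20 h, IL-1β at 10 ng/ml for 14 h, or both agents, with glucosamine added 6 h before IL-1β. Per the methods, RNA of 4 flasks a group was labelled, chosen by its absorbance ratio, and arrays that failed a quality assessment were left out. The arrays analysed here (Affymetrix Rat Genome 230 2.0, 1 flask each) were 3 untreated, 2 with glucosamine, 4 with IL-1β and 4 with both agents, named by group and a replicate letter from a to d. All flasks came from 1 pool of cells, so that the p-values measured the spread between flasks and not between animals. Groups followed the sample titles, since a description shared by all samples, untreated ones included, also names glucosamine.

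Values are deposited intensities in arbitrary units, globally scaled by the authors, and can be negative for dim probe sets. Their mean per array was 127 to 145. Before log2 was taken, every intensity under 5.71, the 25th percentile of the whole table, was set to that value (the floor). A gene was called lower or higher where its log2 difference between groups had an adjusted p under 0.05 in limma, with the Benjamini-Hochberg adjustment over all 29263 probe sets tested. Each gene was read from its brightest probe set. A fold against a group at the floor is a lower bound. The replicate d arrays of the IL-1β group and of the group with both agents stood apart from the other 11: 25519 and 25372 of their probe sets lay above the floor, against 22130 to 23489 elsewhere. Their first percentiles of intensity were -31.0 and -36.8, against -6.47 to -4.81 elsewhere. The cell label was checked against 7 chondrocyte markers, all of them above the floor in every group, whose summed intensity was 9409.9 to 10663 on the untreated arrays. The summed intensity of 6 leukocyte markers on the same arrays was 28.8 to 40.1. For 4 fibroblast markers, which cultured chondrocytes also make, it was 7859 to 8909. These sums do not tell chondrocytes from fibroblasts.

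Glucosamine alone was accompanied by lower levels of most of the replication genes. Against untreated cells, 30 of the 49 members were lower and 0 were higher (limma; 0 were also higher at an unadjusted p under 0.05 and by the study's own testing scheme). Among all 13748 genes tested, 9.37% were lower and 10.4% were higher. The median log2 difference over the members was -0.95, beside 0 over all genes. Since the members were chosen with earlier results known, these figures are a description. Every glucosamine array lay below every untreated array for 44 of the 49 members, an arrangement seen for 26.7% of all genes with these 2 and 3 arrays. Taken by array, the median level of the members relative to untreated cells was -0.95 and -1.0 on the glucosamine arrays, and -0.0038, -0.015 and 0.0087 on the untreated arrays (differences of log2 intensity). RNA was taken from whole cultures, so fewer cells in S phase and less RNA per cell cannot be told apart. Markers of cell types moved too. Chondrocyte markers summed to 7242 to 7589.5 in the glucosamine group. Among them, Col9a1 was called lower by -0.84 (adjusted p = 0.00281), while Col2a1 and Acan, at -0.31 and 0.10, were not called. For collagen type II the paper reports a reduction with glucosamine that is larger than the difference of the probe set read here. The 5 muscle markers summed to 371 to 477 against 688 to 805 untreated, with Myh11 and Acta2 called lower by -2.01 and -0.87 (adjusted p = 0.037 and 0.0124), and the leukocyte markers to 58.0 to 73.2. The part of these markers in the differences of the replication genes was not tested.

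**Figure D1:**
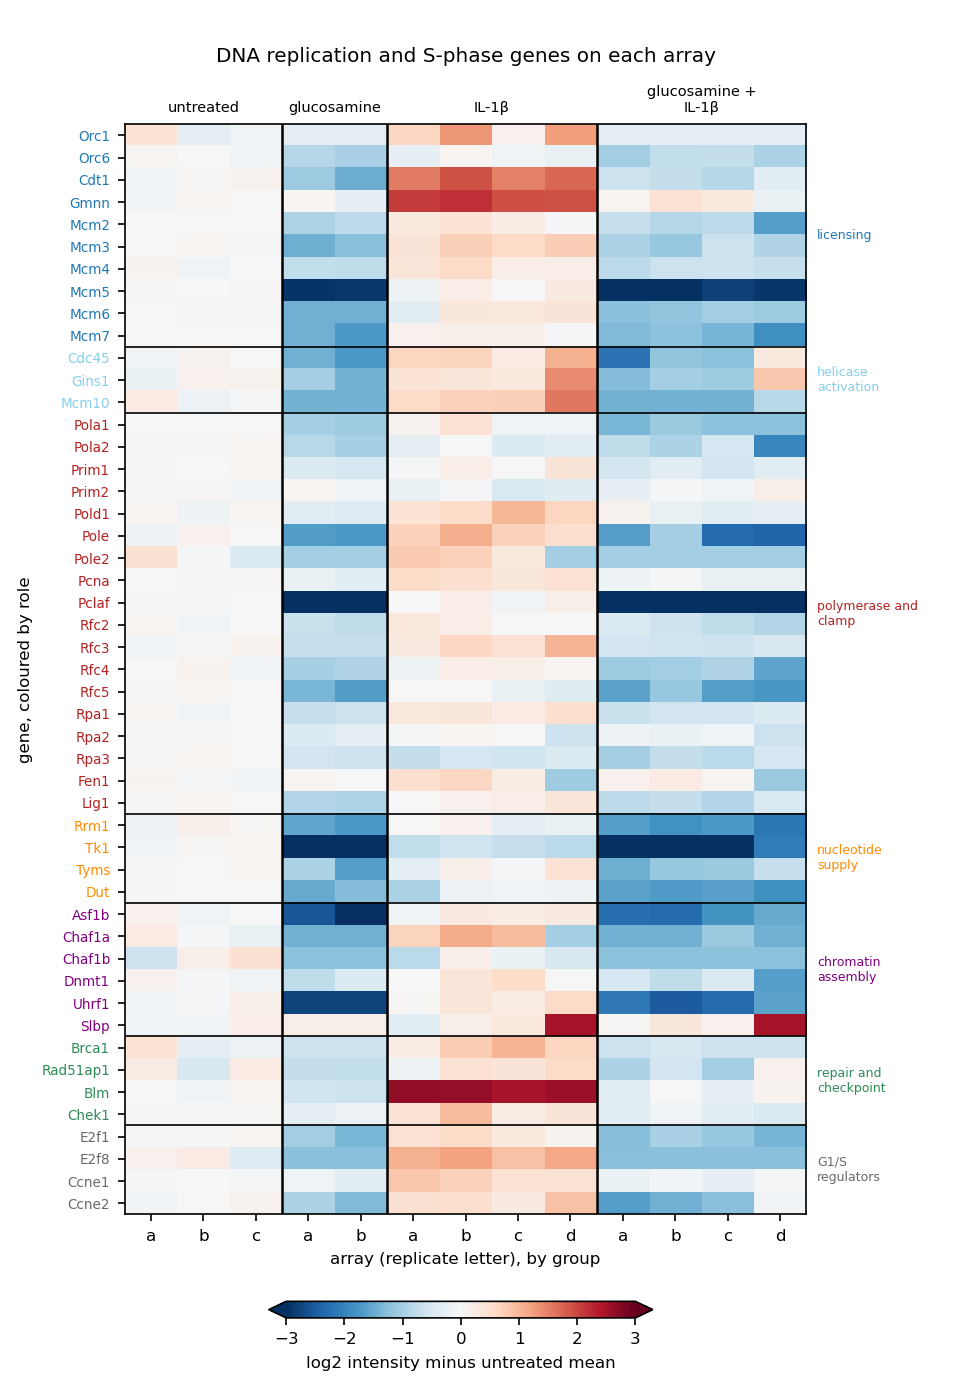
Log2 intensity of each of the 49 measured genes (rows, grouped and coloured by role) on each of the 13 arrays (columns), minus that gene's mean over the 3 untreated arrays. The colour scale ends at -3 and 3. Blue fills most rows on the glucosamine arrays and the arrays with both agents, Cdt1, Gmnn and Blm are red on the 4 IL-1β arrays, and Slbp is red on the replicate d arrays.

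The promoters of the members, measured or not and whether or not they fell, carry letters that can be read directly. RefSeq windows of 300 bases, from 250 before to 50 after the annotated start (assembly GRCr8), were found for 46 of the 55 members, in 49 windows, as 2 members had more than 1. Each window was searched on both strands for 4 spellings of the E2F site, TTTCCCGC, TTTCGCGC, TTTGCCGC and TTTGGCGC. Matches on opposite strands can overlap, as in Mcm2, Mcm5, Mcm6 and Gins1, and overlapping matches were counted separately. At least 1 of these stood in 20 of the 49 member windows (40.8%), against 716 of 33469 windows of all genes (2.14%). By role, 7 of 8 licensing genes with a window held one, 7 of 17 genes of the polymerases and clamp, and 3 of 6 of chromatin assembly. It was 1 of 6 for helicase activation, 1 of 4 for nucleotide supply and 1 of 4 for repair and checkpoints. Of the regulators of S-phase entry only 1 had a window, and it held none. Of the members with a window, 13 of 25 that were lower with glucosamine and 7 of 17 that were not called held one. Of the 30 matches, 21 lay with their centre within 50 bases of the start. The CCAAT box of NF-Y was found in 28 of 49 member windows (57.1%) and in 37.5% of all windows, and the cell cycle homology region (CHR), TTTGAA, in 8 of 49 (16.3%) and in 18.3%. A match describes letters and not binding.

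The 5 promoters that follow belong to members with the largest falls under glucosamine that held an E2F match, and are shown to let the matches be seen in place. They run 5′ to 3′ on the gene's strand from 250 bases before to 30 bases after the start, with E2F matches in capitals. In Mcm5, the first run of capitals holds 2 overlapping matches. Uhrf1 had 3 windows, and only that shown here held an E2F match.
Pclaf, chr8:75315467-75315746, plus strand: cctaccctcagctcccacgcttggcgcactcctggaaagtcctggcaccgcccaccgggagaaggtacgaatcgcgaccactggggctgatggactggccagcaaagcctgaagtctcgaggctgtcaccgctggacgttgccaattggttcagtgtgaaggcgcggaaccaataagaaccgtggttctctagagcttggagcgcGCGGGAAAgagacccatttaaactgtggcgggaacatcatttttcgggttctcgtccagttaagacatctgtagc
Mcm5, chr19:13488563-13488842, plus strand: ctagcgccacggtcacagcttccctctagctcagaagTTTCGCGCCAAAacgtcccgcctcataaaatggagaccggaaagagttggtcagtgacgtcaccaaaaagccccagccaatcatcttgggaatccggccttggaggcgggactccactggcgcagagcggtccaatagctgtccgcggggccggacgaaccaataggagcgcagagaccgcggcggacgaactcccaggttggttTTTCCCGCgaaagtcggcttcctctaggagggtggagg
Uhrf1, chr9:1222936-1223215, plus strand: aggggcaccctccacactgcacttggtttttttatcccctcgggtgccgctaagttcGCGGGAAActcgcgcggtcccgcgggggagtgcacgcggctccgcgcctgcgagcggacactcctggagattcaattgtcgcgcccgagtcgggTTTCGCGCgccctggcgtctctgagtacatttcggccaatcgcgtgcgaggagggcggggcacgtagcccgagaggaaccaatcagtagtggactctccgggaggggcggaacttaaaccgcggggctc
Pole, chr12:52053633-52053912, minus strand: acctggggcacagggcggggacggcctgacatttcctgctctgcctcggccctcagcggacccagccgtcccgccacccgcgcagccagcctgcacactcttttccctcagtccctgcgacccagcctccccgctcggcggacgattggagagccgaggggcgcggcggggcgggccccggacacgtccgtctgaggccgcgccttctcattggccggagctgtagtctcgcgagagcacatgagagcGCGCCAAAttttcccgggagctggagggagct
Mcm7, chr12:22163149-22163428, minus strand: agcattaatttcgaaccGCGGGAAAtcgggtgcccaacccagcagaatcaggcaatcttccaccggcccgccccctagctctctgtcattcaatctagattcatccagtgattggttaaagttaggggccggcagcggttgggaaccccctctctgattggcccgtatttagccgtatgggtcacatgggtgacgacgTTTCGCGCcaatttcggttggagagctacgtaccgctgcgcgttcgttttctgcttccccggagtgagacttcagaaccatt

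**Figure D2:**
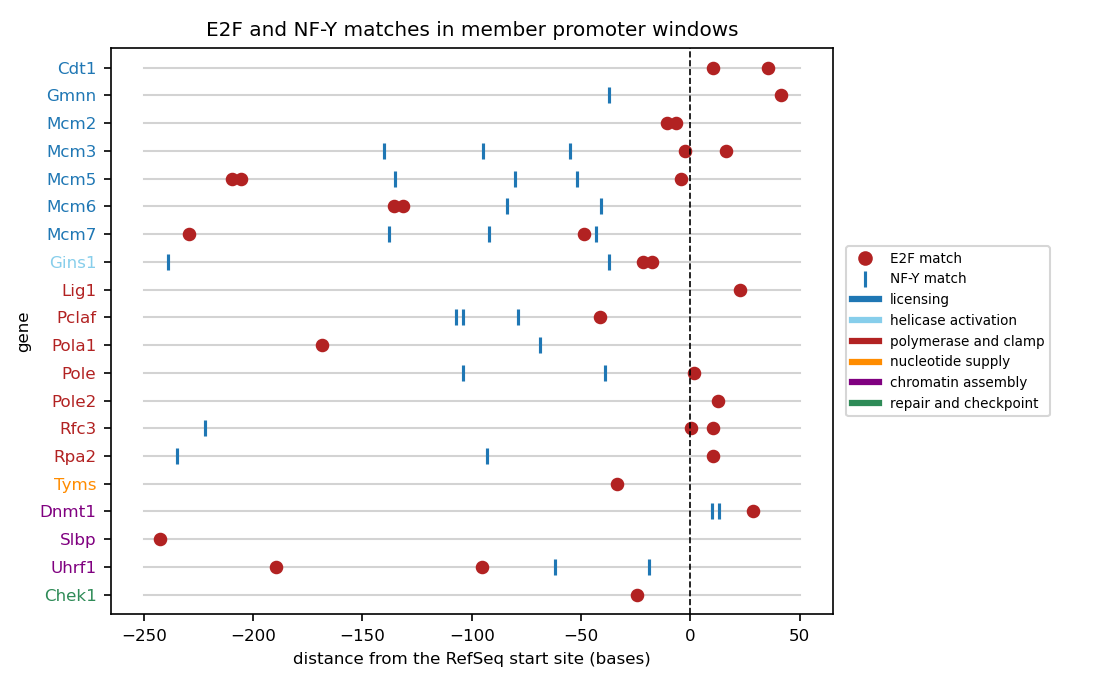
Positions of E2F matches (red points) and NF-Y matches (blue ticks) in the 20 member windows with an E2F match, against the distance in bases from the RefSeq start site (dashed line). Gene names are coloured by role. Of 30 E2F matches, 21 lie within 50 bases of the start.

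Among the licensing genes, 8 of 10 were lower with glucosamine, among them all 6 measured subunits of the MCM helicase. Mcm5 intensity was 90.0, 94.8 and 96.8 without treatment, 12.2 and 12.6 with glucosamine, 85.0, 108, 94.3 and 113 with IL-1β, and 10.6, 8.82, 13.5 and 12.3 with both agents. All 6 arrays with glucosamine lay at or under 13.5, and all 7 without it lay at or above 85.0. Relative to untreated cells, Mcm5 stood at 13.2% with glucosamine, a log2 difference of -2.92 (SE 0.22, adjusted p = 4.3e-06). Mcm7 intensity was 215, 220.3 and 217 without treatment, 80.7 and 66.1 with glucosamine, 238, 242, 243 and 213 with IL-1β, and 86.4, 92.3, 82.3 and 60.3 with both agents. Mcm7 was lower by a log2 difference of -1.57 (SE 0.16, adjusted p = 3.8e-05), and no array with glucosamine reached an array without it. Mcm3 intensity was 58.4, 61.3 and 57.2 without treatment, 21.4 and 24.9 with glucosamine, 77.5, 96.3, 89.9 and 97.8 with IL-1β, and 30.4, 26.9, 38.0 and 31.5 with both agents. The groups with and without glucosamine did not overlap, with a log2 difference of -1.35 (SE 0.18, adjusted p = 0.00028) for glucosamine alone. Mcm4 intensity was 239, 207 and 221 without treatment, 133 and 130.1 with glucosamine, 286, 329.8, 253 and 255 with IL-1β, and 129.8, 142, 144 and 137 with both agents. Mcm4 showed the smallest difference of the 6 subunits, -0.75 (SE 0.11, adjusted p = 0.00066). Mcm6 and Mcm2 differed by -1.44 and -0.85 (adjusted p = 0.00016 and 0.0334). The call of Mcm2 was lost without any 1 of the 5 untreated and glucosamine arrays, with quantile normalization and with scaling to the 75th percentile (adjusted p from 0.0548 to 0.293).

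The licensing factors outside the helicase gave mixed calls. Cdt1 intensity was 44.8, 50.5 and 53.1 without treatment, 23.2 and 17.5 with glucosamine, 146, 187, 141 and 164 with IL-1β, and 31.5, 29.9, 27.1 and 38.7 with both agents. Cdt1, which loads the helicase, was lower with glucosamine, -1.29 (SE 0.20, adjusted p = 0.0008), and higher with IL-1β, 1.68 (SE 0.16, adjusted p = 1.1e-05), with no overlap between these 3 groups. Gmnn intensity was 39.0, 43.0 and 41.9 without treatment, 43.2 and 34.8 with glucosamine, 177, 187, 157 and 154 with IL-1β, and 43.7, 55.7, 50.8 and 36.0 with both agents. For geminin, which binds and blocks Cdt1, the glucosamine and untreated arrays overlapped (-0.09 (SE 0.18, adjusted p = 1.0)), whereas every IL-1β array stood above all 9 others. Orc1 intensity was 9.18, 4.83 and 6.33 without treatment, 0.545 and 1.23 with glucosamine, 10.7, 17.3, 7.53 and 16.5 with IL-1β, and -0.451, 2.08, 1.29 and 2.47 with both agents. Orc1, the largest subunit of the origin recognition complex, was near the floor outside the IL-1β group, and its difference with glucosamine was -0.28 (SE 0.33, adjusted p = 0.851). Orc6, another subunit of that complex, was lower with glucosamine by -0.91 (SE 0.17, adjusted p = 0.00316). Its other probe sets were not called, at -0.59 and -0.99 (adjusted p = 0.169 and 0.178). The call of Orc6 was lost with quantile normalization (adjusted p = 0.192).

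Of the 3 genes that activate the helicase, Mcm10 was called lower with glucosamine. Mcm10 intensity was 18.3, 13.6 and 14.7 without treatment, 1.05 and 0.909 with glucosamine, 23.1, 24.8, 25.2 and 45.9 with IL-1β, and 1.89, 1.35, 3.03 and 8.62 with both agents. Both glucosamine arrays and 3 of the 4 arrays with both agents were at the floor, so that the difference of -1.43 (SE 0.34, adjusted p = 0.0138) is a lower bound in size, at least 2.69-fold. Cdc45, which travels with the helicase, and Gins1, a GINS subunit, had glucosamine differences of -1.59 and -1.21 that did not pass (adjusted p = 0.0771 and 0.223). Their replicate d arrays stood high. Gins1 read 91.0 on the replicate d array with IL-1β, against 41.7 to 45.1 on the other 3. A second Cdc45 probe set was lower with glucosamine, by -2.11 (adjusted p = 0.00102), while the remaining 2 differed by -0.06 and 0.27 (adjusted p = 1.0 and 0.983).

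Of the 18 genes of the polymerases, clamp and clamp loader, 11 were lower with glucosamine. The largest difference of all 49 members was that of Pclaf, the PCNA-associated factor that binds the clamp. Pclaf intensity was 383, 360.2 and 378 without treatment, 14.2 and 12.3 with glucosamine, 377, 431, 347 and 421 with IL-1β, and 17.4, 18.6, 16.4 and 20.1 with both agents. The 6 arrays with glucosamine did not exceed 20.1, and the 7 without it did not go below 347. The log2 difference with glucosamine alone was -4.82 (SE 0.12, adjusted p = 2.1e-09), which left 3.55% of the untreated level. Pole intensity was 27.2, 33.1 and 30.4 without treatment, 9.50 and 9.18 with glucosamine, 48.9, 64.6, 48.6 and 42.5 with IL-1β, and 9.60, 15.2, 5.98 and -2.82 with both agents. Pole, the catalytic subunit of the leading-strand polymerase, was lower with glucosamine by -1.69 (SE 0.40, adjusted p = 0.0137), with both arrays between the untreated range and the floor. Pcna intensity was 764, 751 and 784 without treatment, 668 and 615 with glucosamine, 1120.5, 1075, 966 and 1035 with IL-1β, and 695, 754, 656 and 656 with both agents. The clamp itself was bright on every array, and its difference with glucosamine, -0.26 (SE 0.08, adjusted p = 0.0531), did not pass although the arrays did not overlap.

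Rfc3 intensity was 96.2, 99.6 and 110.1 without treatment, 63.3 and 63.2 with glucosamine, 122, 157, 137 and 208 with IL-1β, and 68.6, 67.7, 66.4 and 72.9 with both agents. Rfc3, a subunit of the clamp loader, was lower with glucosamine by -0.69 (SE 0.18, adjusted p = 0.0213). The other loader subunits measured, Rfc2, Rfc4 and Rfc5, were lower by -0.72, -0.95 and -1.53 (adjusted p = 0.00384, 0.00313 and 0.00018). Pold1 intensity was 28.0, 24.3 and 28.7 without treatment, 21.1 and 20.7 with glucosamine, 35.6, 39.3, 53.8 and 41.9 with IL-1β, and 29.0, 23.2, 21.6 and 22.2 with both agents. Pold1, the catalytic subunit of polymerase δ, differed by -0.36 (SE 0.24, adjusted p = 0.469) with glucosamine, which did not pass. Also lower were Pola1 (-1.03) and Prim1 (-0.48) of the polymerase α-primase complex, the single-strand binding proteins Rpa1 (-0.65) and Rpa3 (-0.62), and the ligase Lig1 (-0.90), with adjusted p from 0.0005 to 0.0239. The members of this role that did not pass were Pola2 (-0.92), Prim2 (-0.04), Pole2 (-1.03), Rpa2 (-0.34), the flap endonuclease Fen1 (0.05), Pold1 and Pcna.

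All 4 measured genes of nucleotide supply were lower with glucosamine. Tk1 intensity was 254, 279.6 and 289 without treatment, 17.5 and 8.96 with glucosamine, 163, 182, 169 and 158 with IL-1β, and 5.43, 10.2, 11.3 and 63.8 with both agents. Tk1, which salvages thymidine, was lower with glucosamine by -4.45 (SE 0.74, adjusted p = 0.00152), to 4.58% of the untreated level. The replicate d array with both agents read above the other 3 but below every array without glucosamine. Tk1 is among the genes that the study itself singled out on these arrays, so its fall here is no independent evidence. Rrm1 intensity was 319, 397 and 367 without treatment, 122 and 109 with glucosamine, 355, 394, 294 and 312 with IL-1β, and 114, 103, 108 and 79.4 with both agents. Rrm1, the large subunit of ribonucleotide reductase, was lower by -1.64 (SE 0.16, adjusted p = 4e-05), again with no overlap between arrays with and without glucosamine. Tyms, which makes thymidylate, and Dut, which removes dUTP, were lower by -1.31 and -1.41 (adjusted p = 0.00732 and 0.0007).

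Of the 6 genes of chromatin assembly, 3 were lower with glucosamine. Asf1b intensity was 72.8, 61.3 and 65.6 without treatment, 11.2 and 8.25 with glucosamine, 60.3, 79.9, 77.1 and 79.9 with IL-1β, and 13.9, 13.4, 19.1 and 23.1 with both agents. Asf1b, a chaperone of new histones, was lower by -2.79 (SE 0.27, adjusted p = 3.5e-05), and the arrays with both agents lay between the glucosamine arrays and the arrays without it. Uhrf1 intensity was 36.2, 37.8 and 43.8 without treatment, 3.31 and 4.04 with glucosamine, 40.4, 50.3, 46.0 and 58.6 with IL-1β, and 8.79, 6.90, 7.86 and 12.9 with both agents. Both glucosamine arrays of Uhrf1, which recruits the maintenance methyltransferase to new DNA, were under the floor, so that its difference of -2.77 (SE 0.31, adjusted p = 8.2e-05) corresponds to at least 6.84-fold. Chaf1b, a subunit of chromatin assembly factor CAF-1, was lower by at least 2.33-fold (adjusted p = 0.0251). Its partner Chaf1a and the methyltransferase Dnmt1 differed by -1.43 and -0.59 without passing (adjusted p = 0.0933 and 0.322). Slbp, which binds histone mRNA, read 36.8 to 58.7 on the 11 other arrays and 261 and 259.8 on the replicate d arrays.

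Of the 4 repair and checkpoint genes, 1 was lower with glucosamine. Blm intensity was 35.3, 32.6 and 37.0 without treatment, 22.9 and 22.3 with glucosamine, 219.5, 216, 195 and 210.0 with IL-1β, and 27.5, 35.0, 29.6 and 37.3 with both agents. Blm, a helicase that resolves stalled forks and recombination intermediates, was lower with glucosamine by -0.63 (SE 0.15, adjusted p = 0.016). Brca1, Rad51ap1 and the checkpoint kinase Chek1 differed by -0.65, -0.73 and -0.23, none of which passed (adjusted p = 0.135, 0.326 and 0.592). Of the 4 regulators of S-phase entry, both E2F genes were lower. E2f1 intensity was 82.4, 81.5 and 89.9 without treatment, 40.9 and 32.9 with glucosamine, 114, 124, 103 and 91.0 with IL-1β, and 35.1, 42.9, 38.4 and 32.2 with both agents. E2f1, an activator of these genes, was lower by -1.20 (SE 0.17, adjusted p = 0.00051). E2f8 intensity was 15.1, 16.4 and 10.4 without treatment, -0.436 and 0.321 with glucosamine, 28.6, 31.6, 25.3 and 30.6 with IL-1β, and 0.135, 0.396, 2.49 and 2.79 with both agents. E2f8, a repressor of the same family, did not exceed the floor on any of the 6 arrays given glucosamine, at least 2.40-fold below untreated (adjusted p = 0.00428). The cyclins Ccne1 and Ccne2, which activate the kinase of S-phase entry, differed by -0.23 and -1.13 without passing (adjusted p = 0.331 and 0.0666).

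**Figure D3:**
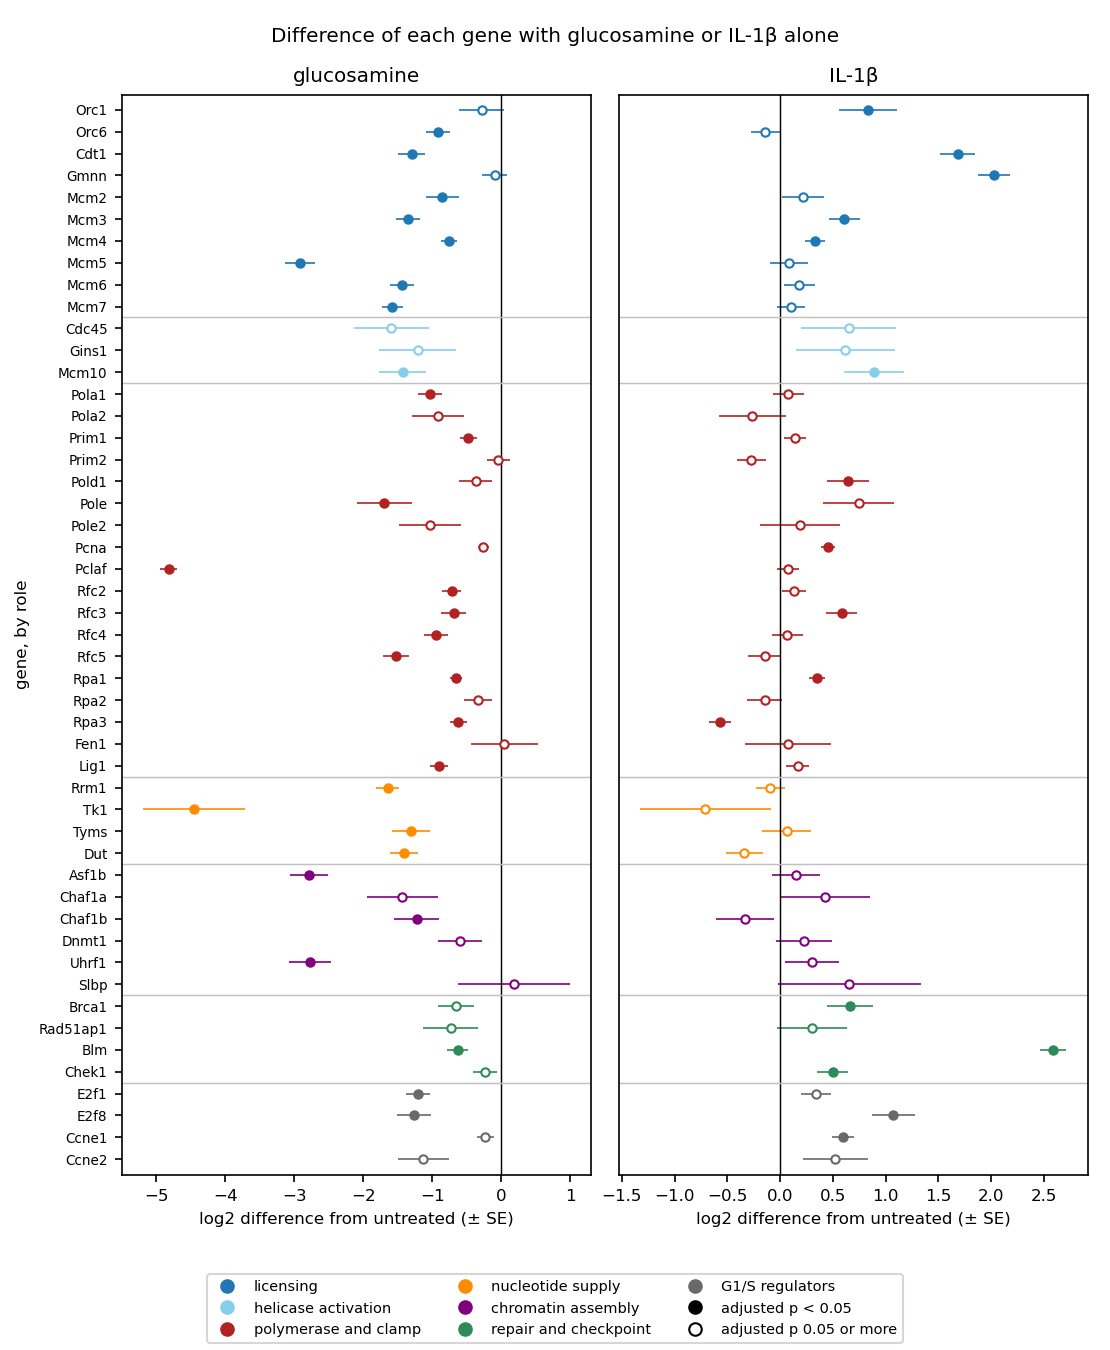
Log2 difference from untreated cells with glucosamine alone (left) and IL-1β alone (right) for each of the 49 genes, with its standard error from limma. The 2 panels have different horizontal scales. Filled points have an adjusted p under 0.05: 30 on the left, all below 0, and 16 on the right, 15 above and 1 below 0.

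IL-1β alone gave a different picture. Against untreated cells, 15 of 49 members were higher and 1 was lower, where 15.5% of all genes were higher and 15.3% lower. The median log2 difference over the members was 0.23, beside 0.09 over all genes. Every IL-1β array lay above every untreated array for 18 of the 49 members, as it did for 22.1% of all genes. The count of 15 rested on the untreated arrays: it was 9 without untreated replicate b and 9 without untreated replicate c. The members that were higher came from licensing (Orc1, Cdt1, Gmnn, Mcm3 and Mcm4), helicase activation (Mcm10), the polymerases and clamp (Pold1, Pcna, Rfc3 and Rpa1), repair and checkpoints (Brca1, Blm and Chek1) and S-phase entry (E2f8 and Ccne1), and none from nucleotide supply or chromatin assembly.

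A few genes carried the large differences. Blm was higher with IL-1β by 2.59 (SE 0.13, adjusted p = 4e-08), which is 6.02-fold, and its IL-1β arrays lay above all 9 others. Blm is among the genes that the study singled out on these arrays for their rise with IL-1β, so its rise here is no independent evidence. Gmnn and Cdt1 were higher by 2.03 and 1.68, or 4.08-fold and 3.21-fold (adjusted p = 1.4e-06 and 1.1e-05). E2f8 was higher by 1.07 (SE 0.21, adjusted p = 0.00223) and Mcm10 by 0.89 (SE 0.28, adjusted p = 0.0396). The remaining 10 were higher by 0.33 (Mcm4) to 0.83 (Orc1). Pcna rose from a narrow untreated range by 0.45 (SE 0.07, adjusted p = 0.00035), Ccne1 by 0.59 (SE 0.10, adjusted p = 0.00122), Rpa1 by 0.35 (SE 0.08, adjusted p = 0.00514) and Chek1 by 0.50 (SE 0.15, adjusted p = 0.0312). Orc1 and Brca1 passed narrowly (adjusted p = 0.0461 and 0.0448), and on both genes the IL-1β and untreated arrays overlapped. Rpa3, the smallest subunit of replication protein A, was the member that was lower, by -0.57 (SE 0.11, adjusted p = 0.0018). Tk1 and Dut had the most negative differences among the others, -0.71 and -0.34 (SE 0.62 and 0.17, adjusted p = 0.498 and 0.212). Neither passed, although the IL-1β and untreated arrays did not overlap. Tk1 read 158 to 182 with IL-1β and 254 to 289 untreated, and Dut 201 to 364 and 383 to 399. Of 6 leukocyte markers, Cd68 was higher in this group, at 132 to 219 against values under the floor on the untreated arrays, while Itgam was under the floor on every IL-1β array, and the sum over the 6 was 223 to 328. Chondrocyte markers summed to 5136 to 6226. The 4 endothelial markers summed to 91.8 to 197, against 46.7 to 64.2 untreated, with Pecam1 and Tek called higher by 1.91 and 0.94 (adjusted p = 0.0112 and 0.0234). Of the muscle markers, which summed to 326 to 651, Myh11 and Acta2 were lower by -1.83 and -0.91 (adjusted p = 0.0155 and 0.00179). The part of these markers in the differences of the replication genes was not tested.

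**Figure D4:**
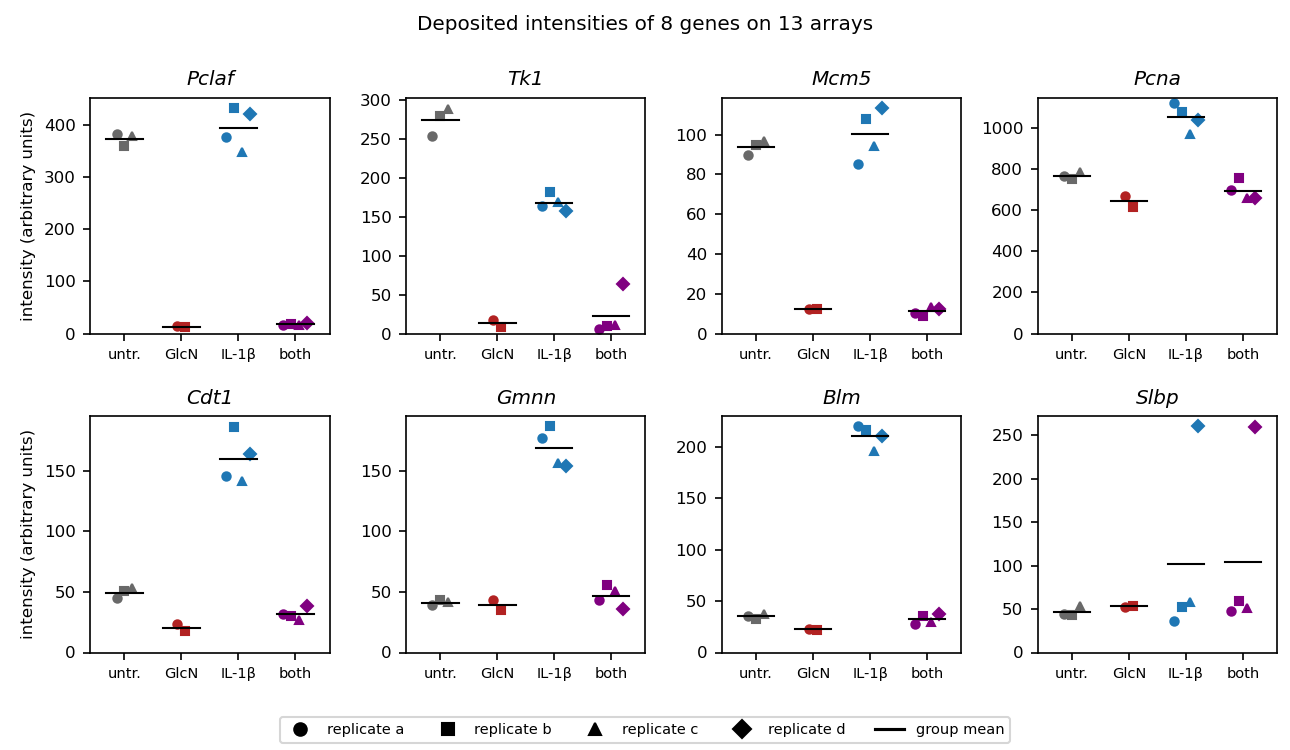
Deposited intensity (arbitrary units, axes from 0) of 8 genes on the 13 arrays. Symbols mark the replicate letter, colours the group (untr., untreated; GlcN, glucosamine; both, glucosamine plus IL-1β), and lines the group mean. Pclaf, Tk1 and Mcm5 are low in both groups with glucosamine, Cdt1, Gmnn and Blm are high in the IL-1β group, and Slbp is high on the replicate d arrays, at 261 and 259.8.

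The group with both agents was set beside glucosamine alone, to read the IL-1β difference in the presence of glucosamine. Compared with glucosamine alone, 0 of 49 members were lower and 0 higher with both agents (limma; 0 and 5 at an unadjusted p under 0.05, and 0 and 0 by the study's testing scheme). Of all genes, 1.13% were lower and 1.45% higher in this comparison. The median difference over the members was 0.05. Blm, 6.02-fold higher with IL-1β in cells without glucosamine, differed by 0.51 (SE 0.14, adjusted p = 0.161) in cells with it. Gmnn differed by 0.25 (SE 0.17, adjusted p = 0.822) and Cdt1 by 0.65 (SE 0.19, adjusted p = 0.161). The highest difference was that of Asf1b, 0.82 (SE 0.26, adjusted p = 0.25), and the lowest that of Dut, -0.28 (SE 0.20, adjusted p = 0.822). Every array with both agents lay above the glucosamine arrays for Blm, Cdt1 and Asf1b and below them for Dut, while those of Gmnn overlapped. The share of all genes so arranged was not counted. The glucosamine group held 2 arrays, and the standard errors of these differences limit what could pass. The 0 calls therefore do not show an absence of response.

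The difference between the IL-1β response with and without glucosamine was tested as an interaction. It passed for 3 of 49 members, all negative, where 6.68% of all genes were negative and 5.11% positive; 0 members were positive (2 at an unadjusted p under 0.05). The 3 were Blm at -2.08 (SE 0.19, adjusted p = 3.6e-05), Gmnn at -1.78 (SE 0.23, adjusted p = 0.00045) and Cdt1 at -1.04 (SE 0.25, adjusted p = 0.0221). The count was 5 without IL-1β replicate c and 5 without IL-1β replicate d, and 7 without both replicate d arrays. For these fits the share of all genes was not counted. Cdt1 lost its call without untreated replicate a or b, glucosamine replicate a or IL-1β replicate b (adjusted p from 0.0501 to 0.138). E2f8, Pcna and Ccne1 came close, at -1.07, -0.35 and -0.51 (adjusted p = 0.0586, 0.0603 and 0.0769). For E2f8 both groups with glucosamine were at the floor, which bounds the response that could be read there.

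**Figure D5:**
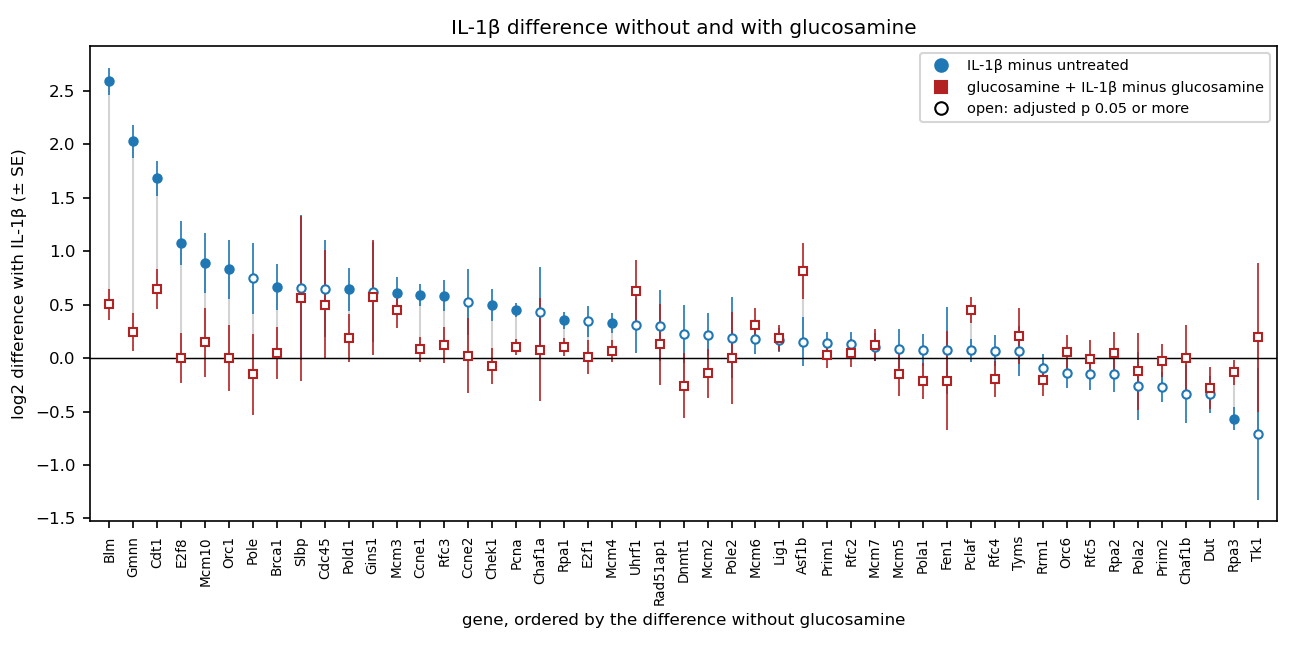
Log2 difference with IL-1β (± standard error) for each of the 49 genes without glucosamine (blue circles, IL-1β minus untreated) and with glucosamine (red squares, both agents minus glucosamine). Filled symbols have an adjusted p under 0.05. All squares are open, and the grey lines are longest for Blm, Gmnn and Cdt1, the 3 genes whose interaction passed.

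Cells with both agents were also compared with the untreated and the IL-1β cells. These comparisons share arrays with those above, so each is given by its own values. Against untreated cells, 33 of 49 members were lower with both agents and 0 were higher (limma; 0 also at an unadjusted p under 0.05 and by the study's scheme), where 14.7% of all genes were lower and 16.6% higher. The median was -0.91 over the members and 0.13 over all genes. Pclaf stood at 4.84% of untreated, Mcm5 at 11.9% and Rrm1 at 27.9% (adjusted p = 3.3e-10, 2.6e-07 and 1.7e-06). Gmnn and Blm, which IL-1β raised on its own, differed from untreated by 0.15 and -0.12 (adjusted p = 0.536 and 0.553), and Cdt1 was lower by -0.65 (SE 0.16, adjusted p = 0.0123). Chondrocyte markers summed to 5679 to 6818 with both agents, leukocyte markers to 107 to 219.7, endothelial markers to 54.8 to 148 and muscle markers to 249 to 433. Cd68 was higher than untreated by 2.61 and Myh11 lower by -3.50 (adjusted p = 0.0183 and 0.00021), and the part of these markers was not tested.

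Against IL-1β alone, 41 of 49 members were lower with both agents and 0 were higher (limma; 0 also at an unadjusted p under 0.05 and by the study's scheme), where 14.8% of all genes were lower and 15.8% higher. The median was -1.22 over the members and 0.03 over all genes. Every array with both agents lay below every IL-1β array for 40 of the 49 members, as for 13.8% of all genes. All 10 licensing genes, all 4 genes of nucleotide supply and all 4 regulators of S-phase entry were lower, with 2 of 3 genes of helicase activation, 13 of 18 of the polymerases and clamp, 5 of 6 of chromatin assembly and 3 of 4 of repair and checkpoints. Blm was lower by -2.71 (SE 0.12, adjusted p = 3e-08), Cdt1 by -2.33 (SE 0.15, adjusted p = 5.9e-07), Gmnn by -1.87 (SE 0.14, adjusted p = 2e-06) and Pcna by -0.60 (SE 0.06, adjusted p = 2.4e-05). The 8 that were not called were Gins1 (-1.26), Pola2 (-0.78), Prim2 (0.21), Rpa2 (-0.14), Rpa3 (-0.18), Fen1 (-0.24), Slbp (0.09) and Rad51ap1 (-0.91). With the replicate letter as a block, the same comparison gave 44 lower, with Gins1, Pola2 and Rad51ap1 called as well. The share of all genes was not counted for that fit. Of the 8, 6 passed in none of the 6 comparisons: Gins1, Prim2, Rpa2, Fen1, Slbp and Rad51ap1.

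Lists of related genes were read beside the members. With glucosamine, 9.37% of all genes tested were lower and 10.4% higher. Of 72 further replication genes measured, 20 were lower, 2 higher and 50 not called with glucosamine, with a median of -0.26. They included the S-phase cyclin Ccna2 (-4.68 (SE 0.27, adjusted p = 8.9e-07)), topoisomerase Top2a (-3.58 (SE 0.31, adjusted p = 1.3e-05)), Fancd2 of the Fanconi pathway (-3.02 (SE 0.25, adjusted p = 1.1e-05)), Dscc1 of an alternative clamp loader (-2.88 (SE 0.29, adjusted p = 4.1e-05)) and the fork protection gene Timeless (-2.35 (SE 0.34, adjusted p = 0.00063)). The 2 that were higher were Orc2 (0.78 (SE 0.09, adjusted p = 0.00013)), a subunit of the origin recognition complex, and the uracil glycosylase Ung (0.74 (SE 0.12, adjusted p = 0.0015)). With IL-1β, 13 of the 72 were higher and 8 lower, where 15.5% and 15.3% of all genes were. Of 34 genes of mitosis, 33 were lower with glucosamine, with a median of -3.13, and Cenpa was not called (-0.03 (SE 0.62, adjusted p = 1.0)). Mki67, a marker of cycling cells, was lower by -2.57 (SE 0.20, adjusted p = 5.5e-06). Like Tk1, Top2a and Mki67 are among the genes the study singled out for their fall on these arrays. The study also singled out several further mitosis genes there, so the 33 falls are no independent evidence. With IL-1β, 3 of the 34 mitosis genes were higher and 4 lower, beside the 15.5% and 15.3% of all genes. Of 7 reference genes, 1 was lower with glucosamine and 2 were higher with IL-1β.

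For the 10 members with several probe sets, 14 further probe sets were tested in the 6 comparisons. Among these 84 comparisons the call differed from that of the brightest probe set in 20, of which 18 lost and 2 gained the call, and none was called in the opposite direction. Without both replicate d arrays, 38 members were lower with glucosamine, 18 were higher with IL-1β and 44 were lower with both agents than with IL-1β. Shares of all genes were not counted for that fit, nor for the omissions that follow. Leaving out single arrays gave 21 to 35 members lower with glucosamine. The call with glucosamine was lost in at least 1 such omission for 9 members, Mcm2, Mcm10, Prim1, Pole, Rfc3, Rpa3, Tyms, Chaf1b and Blm. With IL-1β this held for 7, Orc1, Mcm4, Mcm10, Pold1, Rfc3, Brca1 and Chek1. With both agents it held for 6 against untreated (Cdt1, Pola2, Rfc3, Chaf1a, Dnmt1 and Ccne2) and for 2 against IL-1β (Pole2 and Chaf1b).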

How the data were processed

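Total RNA from 13 flasks of rat chondrocytes was hybridized to 13 arrays. The deposited table holds intensities that the authors made from scanned arrays, per the paper's methods with Microarray Suite and Probe Profiler, scaled globally to 100; the labels name MAS5 version 5, and which program gave the deposited values was not settled. Of 31099 probe sets, 57 controls were dropped, values were floored at 5.71 and log2 was taken, and 29263 probe sets above the floor on at least 1 array were tested in limma 3.58.1 (R 4.3.3; 4 group means, 9 residual degrees of freedom, eBayes with a variance trend, Benjamini-Hochberg over all probe sets), a procedure also tested on simulated data. The precision is limited by the number of arrays. Of the 31042 probe sets, 20826 name 1 gene in a platform annotation, 436 several and 9780 none. Genes with array values were, for each role, the 2 with the largest called difference with glucosamine and those called higher with IL-1β, up to 20. Deviations of same-letter arrays correlated at -0.17 to 0.80 (median -0.06) over all groups. Between IL-1β and both agents all 4 same-letter pairs were positive (0.38 to 0.80). Different letters gave -0.67 to 0.56, and 2 of 4 IL-1β arrays correlated best with their own letter. Among letters a to c, different letters were also positive (0.33 to 0.56), and every negative pair held a replicate d array. These values set replicate d apart and do not pair letters a to c. Members and lists were chosen with earlier results of these data known. Python 3.11.15 and matplotlib 3.10.9 searched promoters and drew figures. Alternatives varied the floor, filter, scaling, variance model, arrays and test. No value column was left unmapped.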

Additional observations from a re-analysis of the deposited data

Results flagged for a closer look

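In the 2 groups of 4 arrays, 1 array of a gene was marked where its gap to the nearest other array took most of the group's range, which chance does in about 1 in 20 groups. Of 94 groups with any spread, 14 were marked, and in 9 of these the array was replicate d. The share of the range was, with IL-1β, 0.899 for Mcm6 (replicate a low), 0.8504 for Mcm7 (d low), 0.902 for Gins1 (d high), 0.871 for Mcm10 (d high), 0.836 for Rpa2 (d low), 0.918 for Dut (a low) and 0.874 for Asf1b (a low). With both agents it was 0.874 for Gins1 (d high), 1.0 for Mcm10 (d high), 0.845 for Rpa2 (d low), 0.867 for Fen1 (d low), 0.875 for Slbp (d high), 1.0 for Chaf1a (c high) and 1.0 for Brca1 (b high). For Mcm10, Chaf1a and Brca1 with both agents the other 3 arrays were at the floor.

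The response to IL-1β differed between cells without and with glucosamine for 3 of 49 genes, by an interaction term in limma with adjusted p under 0.05, where 6.68% of all genes were called negative. Its log2 size was -1.04 for Cdt1, -1.78 for Gmnn and -2.08 for Blm. The call of Cdt1 was lost when any 1 of 4 single arrays was left out (adjusted p from 0.0501 to 0.138).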

How the results depend on the processing

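No gene changed direction where it was called. Of the members lower with glucosamine, 21 of 30 held their call under all 13 other settings and 21 of 30 under all 13 omissions of a single array; with IL-1β this was 7 and 9 of 16 called. The floor sets the size of the falls: with it at the 10th percentile, the 40th percentile and 32, the members' median was -1.13, -0.75 and -0.65 with glucosamine, and -1.04, -0.68 and -0.67 with both agents against untreated. Against IL-1β it was -1.08 and -0.98 at the 2 higher floors. Quantile normalization gave -1.03 with both agents against untreated. Array weights gave medians of 0.34 (IL-1β) and -1.35 (both agents against IL-1β), and counts of 25 higher with IL-1β, 3 higher with both agents against glucosamine, and 15 negative and 1 positive in the interaction. The count lower with IL-1β was 2 at a floor of 32, with 2 groups alone and by the methods' one-way and Tukey tests, which called 26 lower with both agents against IL-1β. The negative interaction count was 5 at the 40th percentile, without a filter and with probe sets averaged, 6 at a floor of 32, and 7 without both replicate d arrays. Omitting single arrays gave 9 to 15 higher with IL-1β and 2 to 5 negative interactions; a group left with 1 array was assumed to vary like the others. With the letter as a replicate block, 36 members were lower with glucosamine, 17 higher with IL-1β, 35 and 44 lower with both agents against untreated and IL-1β, and 1 interaction was positive. The letters were not shown to pair the flasks in any comparison. Shares of all genes were not counted under any of these alternatives, so a changed count of members is not set against all genes. The number of arrays and signals near the floor limit what could be called; the causes of these shifts were not tested.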
